A study of Oryza sativa with 6 samples.

Results

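The nuclear genes of the photosynthetic light reactions, the light-harvesting antenna and Rubisco were followed in stem bases of the rice *crl1* mutant and of its wild type. The genes were chosen by name. They are *RCA*, *LIR1*, and any gene whose symbol or synonym in the gene annotation begins with PSA, PSB, PET, LHC, CAB or RBCS followed by a subunit letter or number. They were also selected on level, with 20 as the lowest geometric mean signal over the 6 arrays. The rule uses no difference between arrays, but the set was proposed with earlier results of these data known. The rule named 13 nuclear genes, of which 11 had a probe set, that is, a group of short oligonucleotides on the array that together measure 1 transcript. The 11 genes had 19 probe sets, and 16 of these, of 10 genes, reached the minimum, out of 25045 probe sets that reached it among the 57258 of the array. The rule also named 25 genes of the plastid genome, none with a paired probe set here, so the results for the set are about nuclear transcripts.

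Both groups were rice of the cultivar Taichung 65, 7 days old, grown on half-strength Murashige and Skoog agar at 26 °C with 12 h of light and 12 h of darkness. The *crl1* group carried a loss-of-function mutation in *CRL1*, a LOB-domain transcription factor needed for crown root initiation, and the WT group did not. Each genotype had 3 arrays, labelled as experiments 1 to 3, and each array was hybridised with a sample made from 200 ng of total RNA of pooled stem bases. *CRL1* itself was matched to no probe set here, so the genotype labels were not checked against it. The stem base is a mixture of shoot apex, young leaf sheaths and the zone where crown roots form, and in such a sample fewer cells of a type and less RNA per cell cannot be told apart.

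In the chloroplast, antenna proteins pass light energy to photosystems II and I, and electrons move from photosystem II through the cytochrome b6f complex and the copper protein plastocyanin to photosystem I. The ATP and NADPH so made feed the Calvin cycle, where Rubisco fixes CO2 and Rubisco activase removes sugar phosphates that block its active sites. In leaves many nuclear genes of these complexes respond to light and to the circadian clock, and the pale bases of young shoots are known for immature plastids.

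The 6 arrays had been scaled to the same mean signal after trimming, but replicate 3 stood apart in both genotypes. The median signal was 12.5 on the *crl1* array and 12.7 on the WT array of replicate 3, against 15.2 to 16.6 on the other 4 arrays. The highest signal was 5761 (*crl1*) and 5201 (WT) in replicate 3 and 15946 to 18869 in replicates 1 and 2. The ratio of the 3′ to the 5′ actin probe set was 3.27 (*crl1*) and 3.24 (WT) in replicate 3, against 5.40 to 8.09 in the others. The bright 3′ probe set was at 2877 (*crl1*) and 2862 (WT) in replicate 3, against 4735 to 5644 in the others. The 5′ one was at 880 (*crl1*) and 884 (WT), against 585 and 746 in the other *crl1* arrays and 632 and 961 in the other WT arrays. On the log2 scale replicate 3 differed from replicates 1 and 2 by -0.83 for the 3′ probe set and by 0.30 for the 5′ one. The cause was not tested. The summed signal of 7 root tissue markers was 1240 to 1502 in *crl1* and 1323 to 1847 in WT, and that of 5 shoot meristem and leaf markers was 1572 to 2215 in *crl1* and 1475 to 1995 in WT, so both overlapped between genotypes. The root sum was mostly the signal of *LSI1*, at 657 to 949 in *crl1* and 689 to 1021 in WT. Its overlap therefore says little about the dimmer root markers, whose values are given below. The quiescent centre marker *QHB* and the meristem gene *OSH43* were below the minimum signal.

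The first comparison asked whether photosynthesis transcripts differed between *crl1* and WT. Transcripts of *RCA*, which encodes Rubisco activase, fell in *crl1*, by 0.55 on the log2 scale for its brightest probe set, or 1.46-fold lower. No other of the 10 genes passed the test. The antenna gene *CAB2R* and the plastocyanin gene *PETE*, the brightest of the set, differed by less than 0.10 on the log2 scale. Among the 16 probe sets 3 were lower in *crl1* at an adjusted p-value below 0.05 and none was higher, where 0.447% of all 25045 probe sets were lower (limma, blocked by replicate number, with Benjamini-Hochberg adjustment over all probe sets). All 3 belonged to *RCA*. Without the replicate block 0 of the 16 probe sets passed, beside 5 of all 25045. Without replicate 3 it was 0 of the 16, beside 120 of all 25045. With the block and all replicates 163 of all 25045 passed in either direction.

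The 4 probe sets of *RCA* (LOC4351224) share transcript sequence, so they are not independent of each other. The brightest had signals of 421, 360 and 1230 in *crl1* replicates 1, 2 and 3, against 698, 492 and 1703 in WT replicates 1, 2 and 3. The genotypes overlapped because replicate 3 was high in both, but *crl1* was the lower member of each of the 3 pairs, at 0.604, 0.731 and 0.722 of WT. The fitted log2 fold change was -0.55 ± 0.10 (SE, 95% interval -0.76 to -0.33), with a limma adjusted p of 0.0429, and the adjusted p was 0.0723 without replicate 1 and 0.188 without replicate 3. The other 3 *RCA* probe sets were also lower in *crl1* in every pair. Their log2 fold changes were -0.34 (limma adjusted p = 0.282), -0.51 (adjusted p = 0.0425) and -0.61 (adjusted p = 0.0408). The probe set that missed the threshold had pair ratios of 0.720, 0.724 and 0.937, so its replicate 3 pair lay closest to 1.

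*RBCS-C* (LOC4351966) encodes a small subunit of Rubisco, the enzyme that RCA activates. Small-subunit genes form a family of near-identical copies, so the copy behind a signal is uncertain. The brightest probe set gave 491, 422 and 688 in *crl1* replicates 1 to 3 and 544, 452 and 955 in WT replicates 1 to 3. It was lower in *crl1* in each pair, while the ranges of the genotypes overlapped. The log2 fold change of -0.24 ± 0.10 (SE) did not pass (limma adjusted p = 0.492). The 2 dimmer probe sets of *RBCS-C* disagreed with each other. One had 44.0, 23.7 and 62.7 in *crl1* against 56.0, 60.0 and 108 in WT, a log2 fold change of -0.82 ± 0.23 (SE, limma adjusted p = 0.222), the lowest of all 16. The other had 85.7, 81.3 and 99.7 in *crl1* against 68.4, 75.8 and 128 in WT, with a log2 fold change of 0.020 ± 0.18 (SE). *RBCS-C* held the dimmest of the 16 probe sets, at a geometric mean of 53.6, and the nearest probe set below the minimum of 20 was a second one of *PSAG*, at 16.05, which was left out. A further *RBCS-C* probe set and that of *RBCS1* were far below it, at 1.14 and 1.29.

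**Figure D1:**
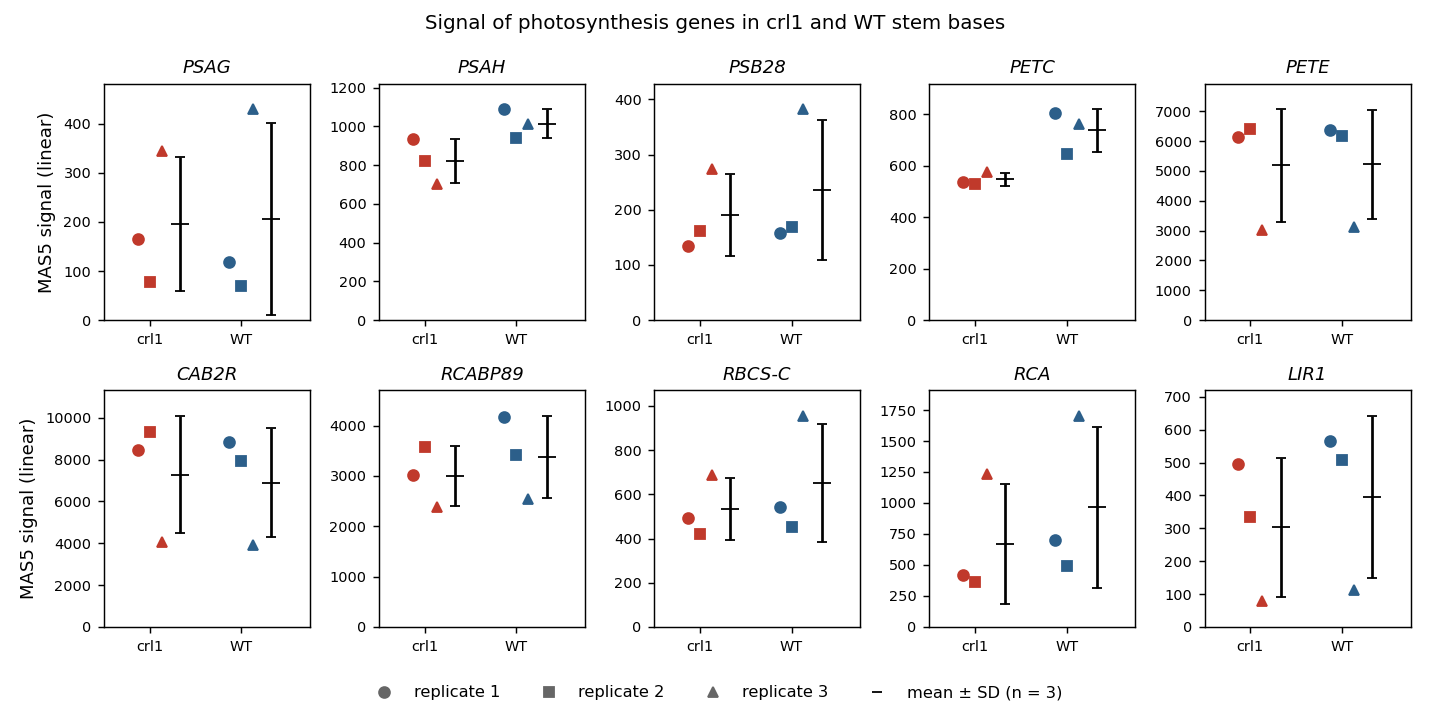
MAS5 signal (linear axis from 0) of the brightest probe set of each of the 10 photosynthesis genes in *crl1* (red, left) and WT (blue, right) stem bases, with a symbol per replicate and the mean ± SD of 3 arrays beside them. Replicate 3 (triangles) lies above replicates 1 and 2 in both genotypes for *RCA*, *RBCS-C*, *PSB28* and *PSAG* and below them for *LIR1*, *CAB2R*, *PETE* and *RCABP89*, and the genotypes are apart only for *PETC* and *PSAH*.

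The 2 nuclear genes of electron transfer between the photosystems that the rule named were measured, and they differed in their values. The plastid genes *petA*, *petB*, *petD*, *petG*, *petL* and *petN* of the cytochrome complex had no probe set. *PETC* (LOC4343570) encodes the Rieske iron-sulphur protein of the cytochrome b6f complex. Its signal was 537, 527 and 575 in *crl1* replicates 1 to 3 and 806, 645 and 760 in WT replicates 1 to 3, or 546 ± 25.7 against 737 ± 83.1 (SD, n = 3 each). Every *crl1* value was below every WT value. The log2 fold change was -0.43 ± 0.10 (SE, 95% interval -0.64 to -0.21), with a limma adjusted p of 0.108. *PETE* (LOC4339833) encodes plastocyanin. Its signal was 6125, 6415 and 3005 in *crl1* and 6365, 6169 and 3109 in WT, with pair ratios of 0.962, 1.04 and 0.967. The 95% interval of its log2 fold change ran from -0.21 to 0.17.

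Photosystem I was represented by 2 small subunits of its membrane complex, of which PSAH lies on the side where antenna complexes can dock. *PSAH* (LOC4339593) had signals of 932, 822 and 704 in *crl1* replicates 1 to 3 and 1089, 938 and 1014 in WT replicates 1 to 3. All 3 *crl1* values lay below the 3 WT values, and the log2 fold change was -0.31 ± 0.10 (SE, limma adjusted p = 0.297). *PSAG* (LOC4337812) had 166, 77.5 and 344 in *crl1* and 119, 70.4 and 430 in WT. Here *crl1* was the higher member of pairs 1 and 2 and the lower of pair 3, and the log2 fold change of 0.10 had a 95% interval of -0.26 to 0.46. *PSAH* and *PETC* were the only 2 of the 16 probe sets whose genotypes did not overlap with *crl1* below WT, a pattern found in 3.64% of all probe sets.

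Photosystem II was represented by *PSB28* (LOC4326537) alone, whose product takes part in assembly of the complex. Its signal was 134, 161 and 274 in *crl1* replicates 1 to 3 and 158, 169 and 383 in WT replicates 1 to 3. It was lower in *crl1* in each pair, at 0.847, 0.957 and 0.717 of WT, with overlapping ranges. The log2 fold change was -0.26 ± 0.12 (SE, limma adjusted p = 0.55).

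The antenna genes encode chlorophyll a/b-binding proteins, and *CAB2R* (LOC4324599) had the brightest probe set of the 16. Its signal was 8465, 9305 and 4074 in *crl1* replicates 1 to 3 and 8831, 7927 and 3934 in WT replicates 1 to 3. The genotypes overlapped and the pairs did not share a direction, with a log2 fold change of 0.074 (95% interval -0.13 to 0.28). Its second probe set gave -0.047 ± 0.091 (SE). *RCABP89* (LOC4333359), which the rule took through its synonym LHCP, had 3027, 3579 and 2385 in *crl1* and 4179, 3415 and 2551 in WT. Its log2 fold change was -0.16 (95% interval -0.41 to 0.08). Genes of this family are alike in sequence, so copies may share these probe sets.

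*LIR1* (LOC4326442) was first described as a light-induced gene of rice seedlings, and in Arabidopsis its protein helps to attach ferredoxin-NADP reductase to the thylakoid. Its signal was 497, 334 and 77.5 in *crl1* replicates 1 to 3 and 566, 509 and 113 in WT replicates 1 to 3. It was the lower in *crl1* in each of the 3 pairs, at 0.879, 0.656 and 0.686 of WT, while the ranges overlapped because replicate 3 was low in both genotypes. The log2 fold change was -0.45 ± 0.12 (SE, limma adjusted p = 0.195).

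**Figure D2:**
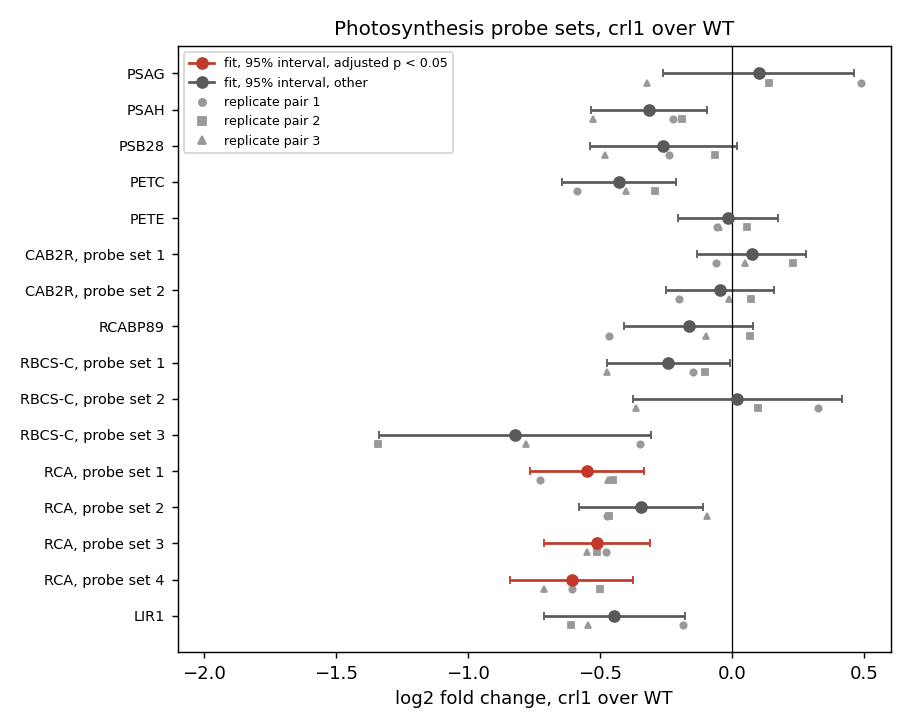
Log2 fold change of *crl1* over WT for each of the 16 probe sets (large points, fitted value with its 95% interval), with the 3 replicate pairs as small grey symbols below; probe sets of a gene are numbered from the brightest. Of the 16 fitted values 13 lie below 0, and the 3 in red, all of *RCA*, passed an adjusted p-value of 0.05.

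Of the 16 probe sets, 13 had a negative log2 fold change, and their median was -0.29, beside 0.00344 over all 25045 probe sets, of which 12335 were negative. The medians of the 3 pairs were -0.23, -0.15 and -0.44. By subgroup the median was -0.51 for the 7 Rubisco probe sets, of which 4 were of *RCA*, -0.22 for the 2 of electron transfer, -0.11 for the 2 of photosystem I and -0.05 for the 3 of the antenna. The 12 probe sets left without *RCA* had a median of -0.20, with 9 negative values and none past the adjusted threshold. Before adjustment, 9 of 16 probe sets were lower in *crl1* at a p-value below 0.05, where 4.9% of all probe sets were. With the brightest probe set of each gene these were 5 of 10 genes (*LIR1*, *PETC*, *PSAH*, *RBCS-C* and *RCA*). In all 3 pairs *crl1* was below WT for 10 of 16 probe sets and 6 of 10 genes, against 15.2% of all probe sets. No member was over 2 times or under 0.5 times WT in all 3 pairs, as 0.228% of all probe sets were.

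The second comparison was between replicate numbers, because the experiments 1 to 3 are a shared number of both genotypes. Of the 16 probe sets 13 differed between replicate numbers at an adjusted p-value below 0.05, where 21.4% of all probe sets did (limma moderated F test with the genotype in the fit). Of the 10 genes 8 did so with their brightest probe set, and *PETC* and *PSAH* did not. The direction was not shared. Replicate 3 was above replicates 1 and 2 in both genotypes for 9 of 16 probe sets, of *RCA*, *RBCS-C*, *PSB28* and *PSAG*, beside 23.9% of all probe sets. It was below them in both genotypes for 5 of 16, of *CAB2R*, *PETE*, *RCABP89* and *LIR1*, beside 28.7%.

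The difference given here is replicate 3 minus the mean of replicates 1 and 2 on the log2 scale, averaged over genotypes. It was chosen with replicate 3 known to stand apart and is a description, while the adjusted p is that of the F test over all 3 numbers. *PSAG* was higher in replicate 3 by 1.92 (1.60 in *crl1* and 2.23 in WT, limma F test adjusted p = 0.000241). Its second probe set, below the minimum signal, went the other way, by -1.16 in *crl1* and -1.98 in WT, so the 2 probe sets of the gene disagree. *RCA* was higher by 1.60 for its brightest probe set (1.66 in *crl1* and 1.54 in WT, adjusted p = 6.41e-05) and by 1.71, 1.74 and 1.91 for the others. *PSB28* was higher by 1.06 (adjusted p = 0.00161) and *RBCS-C* by 0.77 for its brightest probe set (adjusted p = 0.00293). The largest decrease was that of *LIR1*, by -2.32 (-2.39 in *crl1* and -2.25 in WT, adjusted p = 2.93e-05). For each of these genes *crl1* and WT moved the same way.

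The other decreases were those of the brightest members. The difference was -1.11 for both *CAB2R* probe sets (adjusted p = 0.000323 for the brighter), -1.04 for *PETE* (adjusted p = 0.000293) and -0.52 for *RCABP89* (limma F test adjusted p = 0.0297). All 361 probe sets of the array at or above a mean signal of 3000 were lower in replicate 3, with a median of -0.79, as were 93.9% of the 362 between 2000 and 3000. The spiked cre hybridisation control, which does not come from the plant, was at 3798 in *crl1* and 3440 in WT in replicate 3, against 5977 to 6313 in replicates 1 and 2, a difference of -0.77 for its 3′ probe set. Between signals of 200 and 500, where *LIR1* and the dimmest *RCA* probe set lay, 47.5% of 5361 probe sets were lower and the median was 0.02.

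**Figure D3:**
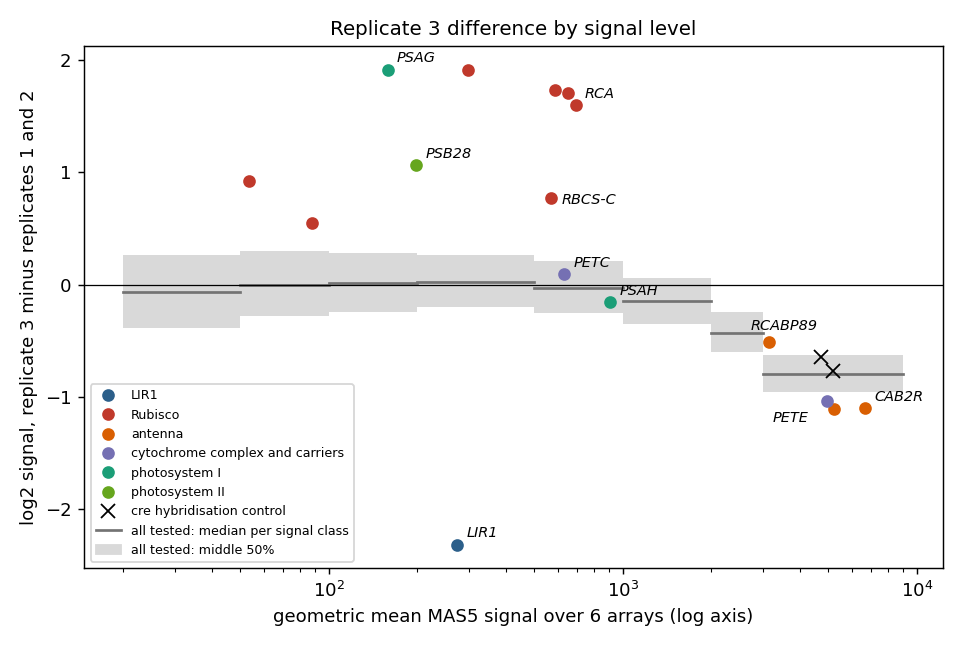
Difference of replicate 3 from the mean of replicates 1 and 2 (log2, average of both genotypes) against the geometric mean signal (log axis) of the 16 photosynthesis probe sets, over all probe sets tested and the spiked hybridisation controls. The brightest members, *CAB2R*, *PETE* and *RCABP89*, lie at signals of 3000 or more, where every probe set was lower in replicate 3. *CAB2R* and *PETE* lie below the lower quartile of that signal class (-0.96), and *RCABP89* lies above its upper quartile (-0.63). *RCA*, *PSAG* and *LIR1* lie far from the median at their own signal.

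Quantile normalization, which gives all 6 arrays the same distribution of signals, split these genes. The difference in replicate 3 became 0.088 and -0.26 for the 2 *CAB2R* probe sets, 0.053 for *RCABP89* and -0.21 for *PETE*, and none of the 4 passed any longer (limma F test adjusted p = 0.611, 0.0549, 0.633 and 0.134). It stayed at -2.36 for *LIR1*, 1.86 for *PSAG*, 1.01 for *PSB28*, 0.78 for the brightest *RBCS-C* probe set and 1.70 to 1.90 for *RCA*. Over all 25045 probe sets 4620 passed the F test with this normalization and 5355 without it. Of the 16 probe sets 8 passed with it, against 13 without it. The fifth that no longer passed was the dimmest *RBCS-C* probe set, whose difference was 0.94 with it and 0.93 without it (limma F test adjusted p = 0.0553 and 0.0432). The 3 *RCA* probe sets that were lower in *crl1* passed that test under it as well, with limma adjusted p of 0.0332, 0.0386 and 0.0402.

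**Figure D4:**
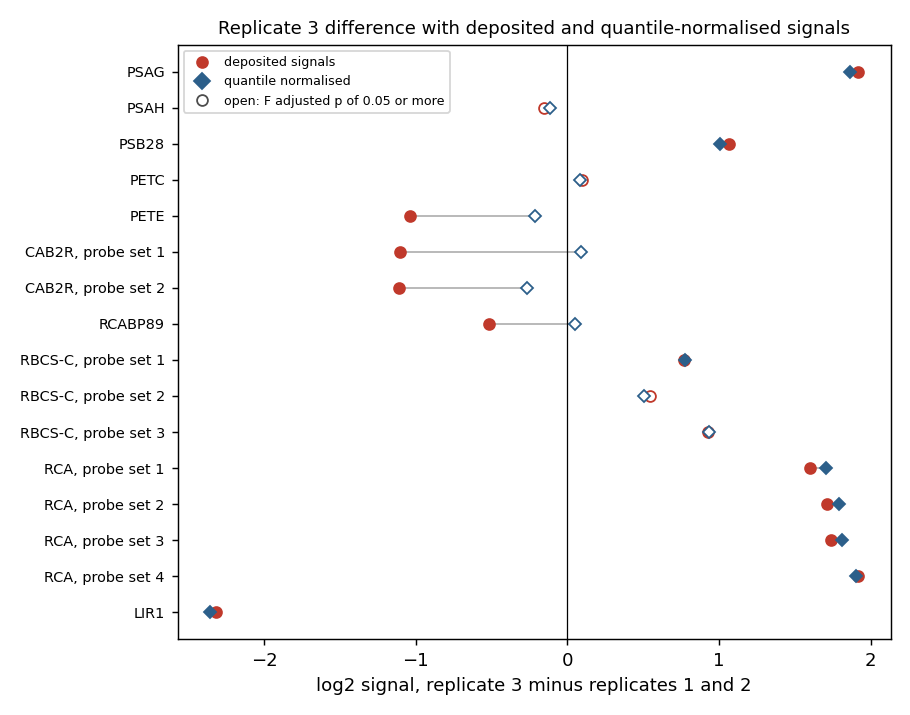
Difference of replicate 3 from the mean of replicates 1 and 2 (log2) for each of the 16 probe sets, from the deposited signals and after quantile normalization of the 6 arrays. The values of *CAB2R*, *PETE* and *RCABP89* move to between -0.26 and 0.088, whereas those of *LIR1*, *RCA*, *PSAG* and *PSB28* move by less than 0.20.

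Genes of the circadian clock differed between the same replicate numbers. All 7 clock genes measured passed the F test, 6 lower and 1 higher in replicate 3, where 21.4% of all probe sets passed. *GI*, an evening-phased clock component, was at 154 in *crl1* and 161 in WT in replicate 3, against 1476 to 1703 in replicates 1 and 2 of both genotypes. *CCA1*, a morning-phased one, was at 1495 in *crl1* and 1634 in WT in replicate 3, against 187 to 370 in the others. None of the 7 passed the test between genotypes, where 163 of all 25045 probe sets did. The smallest p was that of *PCL1*, with a log2 fold change of 0.64 ± 0.19 (SE, limma adjusted p = 0.271). The part of the clock genes in the differences of *LIR1*, *RCA* and *PSAG* was not tested.

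Lists of related genes gave the setting of these values. In none of them did a gene pass the test between *crl1* and WT, where 163 of all 25045 probe sets did. At that share a short list is likely to hold none. Of 9 chlorophyll synthesis genes the median log2 fold change was -0.10. The smallest p was that of *CHLH*, a subunit of the magnesium chelatase that commits the pathway to chlorophyll, at -0.31 ± 0.11 (SE, limma adjusted p = 0.354). Of 8 genes matched to the Calvin cycle list the median was -0.08, and *RPE*, ribulose-phosphate epimerase, was at -0.21 ± 0.11 (SE, adjusted p = 0.589). Some of the 8 are not Calvin cycle genes by their other names, such as the cytosolic aldolases *FBA1* and *FBA3*. Others are *CFBP1*, whose names are those of a cytosolic fructose-bisphosphatase, and *RPE1*, which is annotated as a gibberellin synthesis gene. The 4 glycolate oxidase genes of photorespiration had a median of -0.01, with *GLO5* at 0.14 (adjusted p = 0.646).

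Among 7 light and chloroplast regulators the median was 0.01. *GLK1*, which in rice promotes chloroplast development, was at 129, 133 and 122 in *crl1* replicates 1 to 3 and 175, 128 and 192 in WT replicates 1 to 3, with a log2 fold change of -0.35 ± 0.16 (SE, limma adjusted p = 0.513). Of the 2 chloroplast ATP synthase genes *ATPI*, a gene of the plastid genome that encodes a membrane subunit of the enzyme, was at 0.17 (limma adjusted p = 0.674). Its probe set is of the kind that may cross-hybridise. The other, *ATPB*, was matched by name to a nuclear locus, whereas the chloroplast beta subunit is encoded in the plastid genome, so it is not taken as a chloroplast gene here. Between replicate numbers, the genes past the F test were 2 higher and 0 lower in replicate 3 for chlorophyll synthesis, 3 and 2 for the Calvin cycle list, 2 and 0 for photorespiration, 0 and 2 for the ATP synthase list and 0 and 2 for the regulators. Over all probe sets 21.4% passed, and the shares of chlorophyll synthesis genes (2 of 9) and of regulators (2 of 7) were near it. The lower genes of the Calvin cycle list and of the ATP synthase list, *ATPB* among them, had mean signals of 2358 to 4547. At signals of 2000 to 3000, 93.9% of all probe sets were lower in replicate 3, and above that 100%. *CFBP1*, which is on the Calvin cycle list but a cytosolic fructose-bisphosphatase by its names, was higher by 2.50.

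None of the tissue markers passed the test between genotypes either, where 163 of all 25045 probe sets did. Of the 7 root tissue markers 6 had a negative log2 fold change, with a median of -0.14, and 2 had an unadjusted p-value below 0.05, beside 12335 negative values and 2445 such p-values among all 25045 probe sets. The smallest p was that of *RAA1*, a gene of root development, at 46.6, 50.2 and 40.6 in *crl1* replicates 1 to 3 and 99.0, 168 and 56.8 in WT replicates 1 to 3, with a log2 fold change of -1.11 ± 0.24 (SE, limma adjusted p = 0.0916). The other was the silicon transporter gene *LSI2*, at 27.8, 26.7 and 48.2 in *crl1* and 63.4, 55.1 and 72.0 in WT, with a log2 fold change of -0.94 ± 0.22 (SE, adjusted p = 0.127). For both genes every *crl1* value was below every WT value, a pattern found in 3.64% of all probe sets. Of the 5 shoot meristem and leaf markers 3 had a positive and 2 a negative log2 fold change, from -0.33 to 0.27, with a median of 0.19. *OSH1*, a homeobox gene of the shoot meristem, had the smallest p of these, at 0.27 ± 0.09 (SE, limma adjusted p = 0.315). The part of tissue makeup in the *RCA* difference was not tested.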

How the data were processed

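Stem base RNA of 3 *crl1* and 3 WT samples was hybridised to 6 rice GeneChip arrays. The deposited values are linear signal intensities that the authors computed per probe set with MAS5 in Affymetrix Expression Console and scaled per array, so that the mean after trimming 2% at each end was 100.0 on every array. Scanner intensities were not used here, and arrays have no read depth, so their number limits the precision.

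Here 123 control probe sets were left out, and signals were taken to log2 without a pseudocount. Probe sets with a geometric mean of at least 20 were fitted with limma 3.58.1 (R 4.3.3), with genotype and replicate number as terms and a mean-variance trend, and tested two-sided at an adjusted p of 0.05. The replicate number was kept as a block because the study's methods compared genotypes within each replicate. Deviations of same-numbered samples from their group means correlated at 0.390, 0.451 and 0.747, and those of differently numbered samples at 0.232 at most. The labels call the replicates independent experiments, and each is 1 pool per genotype.

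Of the 57258 probe sets, 22436 were paired with 1 gene, 95 with several and 34727 with none, through the platform annotation and RefSeq gene names. Each gene's statistics are those of its brightest probe set unless others are named. The genes named are those passing the test in *crl1* or of smallest p per subgroup, those of largest difference in replicate 3, the brightest per subgroup, *RCA* and *LIR1*, and the smallest-p gene of each other list with *GI* and *CCA1*; *CFBP1*, *FBA1*, *FBA3*, *RPE1*, *ATPB* and *LSI2* were named after their values were seen. The members and lists were chosen with earlier results of these data known. The alternatives tried were no replicate block, other signal minimums, a pseudocount, quantile normalization, median centring, no trend, a stricter threshold, other probe set choices and leaving out each replicate pair.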

Additional observations from a re-analysis of the deposited data

How the results depend on the processing

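The number of photosynthesis probe sets past the test in *crl1*, 3 of 16, was 0 at an adjusted p under 0.01, 0 without the mean-variance trend, 0 without the replicate block, 0 without the signal minimum, 1 with the brightest probe set of each of 10 genes, and 0 to 2 with a replicate left out (0 without replicate 3). Of all 25045 probe sets 163 passed in the fit used above, 0 without the trend and 5 without the block. Without replicates 1, 2 and 3 these were 335, 199 and 120, and without the signal minimum 119 of 57258 passed. The log2 fold change of *RCA* stayed between -0.60 and -0.46 over 13 alternatives, but its limma adjusted p ranged from 0.0317 to 1.0, with 0.354 without the trend, 1.0 without the replicate block and 0.0703 without the signal minimum. Without the replicate block the spread between replicate numbers enters the error of *RCA* by construction. The median log2 fold change of the members stayed between -0.34 and -0.20. The number differing between replicate numbers, 13, was 8 of 10 with the brightest probe sets, 8 after quantile normalization and 0 to 13 with a replicate left out (0 without replicate 3). Of all 25045 probe sets 5355 passed the F test, 4620 after quantile normalization and 235 without replicate 3. The median difference in replicate 3, 0.66, was -0.030 with the brightest probe sets, 0.99 after median centring, which moved the median of all probe sets to 0.30, and 0.10 without probe sets that may cross-hybridise. Signs turned for *CAB2R* in *crl1* (-0.027 after quantile normalization, -0.0052 to 0.14 with a replicate left out, lowest without replicate 2) and in replicate 3 (0.088 after quantile normalization), *PETE* in *crl1* (-0.052 to 0.00362 with a replicate left out, above 0 without replicate 1 and, at 0.000444, without replicate 3), *PSAG* in *crl1* (-0.091 to 0.31 with a replicate left out, lowest without replicate 1), *PSAH* in replicate 3 (0.18 after median centring) and *RCABP89* in replicate 3 (0.053 after quantile normalization). The F test call of *RCABP89* was lost after median centring (-0.18, adjusted p = 0.49), without the trend (0.17), without the signal minimum (0.069) and at an adjusted p under 0.01. That of *RBCS-C* was lost without the trend (0.0685) and that of *PETE* after quantile normalization (0.134), while *PETC* passed after median centring (0.43, adjusted p = 0.024). The other gene values, 118 for *crl1* and 99 for replicate 3, kept their sign and side of the threshold. Except as stated, the cause was not tested.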
